A study of Homo sapiens with 10 samples.

Results

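The m6A machinery was described here through the mRNA of 10 genes, the catalytic pair METTL3 and METTL14, the 6 adaptor subunits WTAP, VIRMA, ZC3H13, CBLL1, RBM15 and RBM15B, and the demethylases FTO and ALKBH5. The genes were taken by name for their roles, not by a threshold on a measured value. They are 10 of the 61533 genes in the count tables, and all 10 were abundant enough to be tested among 16181 genes. RNA-seq libraries came from T24, a human bladder cancer cell line that is sensitive to cisplatin, and from T24R2, a resistant derivative made from T24 by repeated exposure to the drug. Each line gave 5 libraries, all from day 3. Both groups share the T24 background, and T24R2 is 1 derivative line, so a difference between the lines need not belong to resistance as such. The study's methods keep T24R2 in cisplatin while the labels list the same drug-free medium for both lines, so the line and the drug cannot be told apart. The replicates were not described as separate cultures, and the p-values therefore measure only the spread between these libraries, which may be technical.

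N6-methyladenosine, or m6A, is the most common internal mark of mRNA and is laid down during transcription by a large nuclear complex. METTL3 carries the methyltransferase activity and METTL14 holds the RNA beside it, while WTAP and its partners bring the pair to nuclear speckles and to chosen sites. FTO and ALKBH5 are oxygenases that take the methyl group off again, and reader proteins bind the marked transcripts and set their splicing, export, translation and decay.

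The libraries held 9257843 to 10247941 counts in T24 and 9591379 to 10840954 in T24R2, and the biological coefficient of variation over all genes was 6.61%. TMM scaling factors were 0.936 to 0.951 in T24 and 1.04 to 1.07 in T24R2. The median log2 fold change (log2FC) over all tested genes was 0.01 with TMM and 0.18 without it, so log2FC values are given relative to the TMM scale. The bladder label was checked against 17 epithelial and urothelial markers. KRT7, KRT8 and KRT18 were abundant in both lines, at 1370, 1009 and 691 CPM (counts scaled to the TMM-adjusted library total) in T24R2. In contrast, CDH1, UPK1B, UPK3A and KRT20 had at most 3 counts in every library. All 9 tested members of that marker list were called lower in T24R2, and the falls were uneven. KRT19 went from 267 to 0.0887 CPM, GATA3 from 22.1 to 0.214 CPM, FOXA1 from 66.7 to 13.8 CPM and EPCAM from 4.45 to 0.130 CPM. KRT8, KRT18 and KRT7 fell least, with log2FC values of -0.61, -0.69 and -0.71. The list summed to 4751 to 5365 CPM in T24 and 3222 to 3403 CPM in T24R2. This sum and the other marker sums used library totals without TMM. Leukocyte markers summed to at most 2.79 CPM in any library, and 4 of 5 fibroblast markers had at most 3 counts everywhere. Of the 3 endothelial markers, CDH5 averaged 239 CPM in T24 and 0.559 CPM in T24R2, and the list summed to 212 to 259 CPM in T24 and 1.70 to 2.59 CPM in T24R2. The part of these marker differences in the results below was not tested.

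A gene was called when its adjusted p in edgeR was under 0.05 and its absolute log2FC was over 0.5. Of the 10 genes, 3 were called higher in T24R2, namely CBLL1, ZC3H13 and WTAP, and 0 were called lower. Over all tested genes, 51.4% were called, 24.9% higher and 26.5% lower. With the adjusted p alone, 6 of the 10 passed, 3 higher (the called genes) and 3 lower (METTL3, FTO and ALKBH5), against 75.5% of all genes. The libraries of the lines did not overlap for the same 6 genes, against 61.2% of all genes. The median log2FC of the 10 was 0.09. The catalytic pair, the adaptors and the demethylases had medians of -0.07, 0.33 and -0.44. These are levels in bulk RNA, in which fewer cells with a transcript and less of it per cell cannot be told apart.

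**Figure D1:**
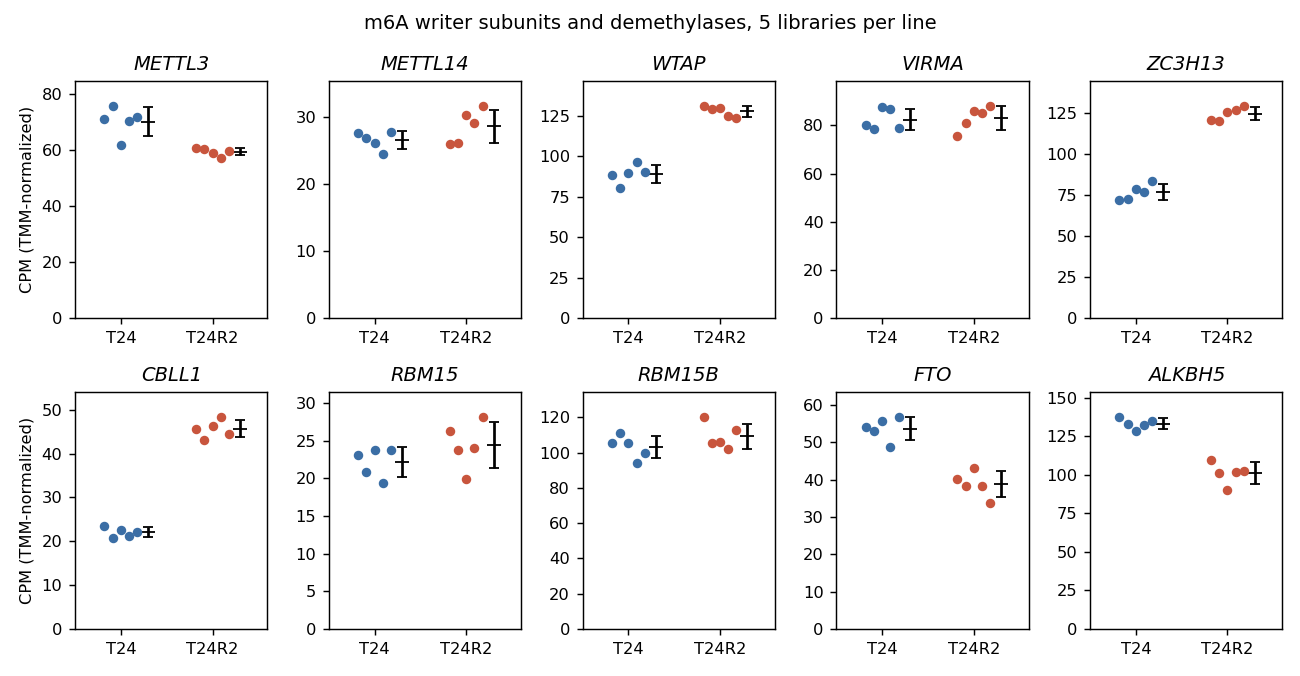
Level of each of the 10 genes in CPM (TMM-normalized, linear axis from 0) in every library, with T24 in blue, T24R2 in red and the mean with its SD in black (n = 5 per line). CBLL1, ZC3H13 and WTAP lie higher in all T24R2 libraries than in any T24 library, METTL3, FTO and ALKBH5 lie lower, and the other 4 genes overlap.

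The 2 catalytic subunits did not move alike. METTL3 (ENSG00000165819.12, hg38 chr14:21498133-21511342, minus strand), the active methyltransferase, measured 71.0, 75.6, 61.7, 70.6 and 71.9 CPM in the T24 libraries and 60.8, 60.6, 59.0, 57.4 and 59.8 CPM in the T24R2 libraries. The ranges did not overlap, although the lowest T24 library (replicate 3) lay close to the highest T24R2 library. Its mean was 70.2 ± 5.14 CPM in T24 and 59.5 ± 1.39 CPM in T24R2 (SD, n = 5 each), a log2FC of -0.24 (SE 0.06, edgeR adjusted p = 0.00039), which is under the fold change minimum. METTL3 lost its adjusted p without scaling, at a log2FC of -0.07 (edgeR adjusted p = 0.240), and over its 21 alternatives the adjusted p ran from 5.2e-05 to 0.240. METTL14 (ENSG00000145388.15, chr4:118685392-118715433, plus strand), which has no activity of its own and supports METTL3 on the RNA, gave 27.6, 26.9, 26.2, 24.4 and 27.8 CPM in T24 and 26.0, 26.1, 30.2, 29.1 and 31.6 CPM in T24R2. Its libraries overlapped, with replicates 1 and 2 of T24R2 inside the T24 range and the other 3 above it. The log2FC was 0.10 with a 95% interval of -0.06 to 0.27 (edgeR adjusted p = 0.247).

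The adaptor subunits held all 3 called genes, and 3 of the 6 were not called. Beside this count, 51.4% of all tested genes were called and 24.9% were called higher. CBLL1 (ENSG00000105879.12, chr7:107743949-107761667, plus strand), a RING finger protein also known as HAKAI that stabilizes the complex, measured 23.6, 20.7, 22.5, 21.1 and 22.1 CPM in T24 and 45.7, 43.2, 46.4, 48.3 and 44.4 CPM in T24R2. Every T24R2 library lay far above every T24 library. Its mean rose from 22.0 ± 1.14 to 45.6 ± 1.94 CPM, a log2FC of 1.05 (SE 0.07, edgeR adjusted p = 5.0e-16), and CBLL1 was the only one of the 10 genes past a log2FC of 1.

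ZC3H13 (ENSG00000123200.17, chr13:45954465-46052759, minus strand), a zinc finger protein that keeps the complex in the nucleus, measured 72.3, 72.5, 79.1, 77.0 and 83.6 CPM in T24 and 121, 120.2, 126, 127 and 129 CPM in T24R2. The lines were again fully separated. Its mean rose from 76.9 ± 4.74 to 125 ± 3.99 CPM, a log2FC of 0.70 (SE 0.05, edgeR adjusted p = 2.4e-15). WTAP (ENSG00000146457.16, chr6:159725585-159756319, plus strand), the regulatory subunit that anchors METTL3 and METTL14 to the adaptors, measured 88.1, 80.3, 89.7, 96.2 and 90.2 CPM in T24 and 131, 129, 129.9, 125 and 124 CPM in T24R2. No T24 library reached the T24R2 range. The WTAP mean rose from 88.9 ± 5.70 to 128 ± 3.27 CPM, a log2FC of 0.52 (SE 0.05, edgeR adjusted p = 6.0e-12). WTAP sat just over the fold change minimum, with a 95% interval of 0.42 to 0.62, and without T24 replicate 2 its log2FC was 0.48 and the call was lost. Exact two-sided permutation tests of the CPM values of CBLL1, ZC3H13 and WTAP each gave p = 0.00794, the smallest that 5 against 5 libraries allow. METTL3, FTO and ALKBH5, which were not called, gave the same p in this test. Full separation of the lines gives this p, and 61.2% of all tested genes were so separated.

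The other 3 adaptors had overlapping library ranges and did not pass the adjusted p. VIRMA (ENSG00000164944.12), the large scaffold that guides methylation toward transcript ends, measured 80.2, 78.6, 87.6, 87.0 and 79.0 CPM in T24 and 75.6, 81.1, 86.2, 85.3 and 87.9 CPM in T24R2, and the ranges overlapped almost fully. Its log2FC was 0.01 with a 95% interval of -0.10 to 0.12 (edgeR adjusted p = 0.844). RBM15 and RBM15B are paralogous RNA-binding proteins that bring the complex to uridine-rich sites. RBM15 (ENSG00000162775.17, chr1:110338506-110346681, plus strand) ranged from 19.4 to 23.8 CPM in T24 and from 20.0 to 28.1 CPM in T24R2, with a log2FC of 0.14 (95% interval -0.05 to 0.33, edgeR adjusted p = 0.173). RBM15B (ENSG00000259956.2, chr3:51391285-51397908, plus strand) ranged from 94.0 to 111 CPM in T24 and from 102 to 120.2 CPM in T24R2, with a log2FC of 0.08 (95% interval -0.03 to 0.19, edgeR adjusted p = 0.160). These intervals leave room for changes smaller than the fold change minimum in either direction.

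Shown are the 250 bases before the RefSeq start of CBLL1, ZC3H13 and WTAP, which were called higher, and of METTL3, which was lower. These genes were picked by their results, and a shared control of them was not tested. The bases run 5′ to 3′ on the gene strand and are from the RefSeq promoter table of GRCh38.p14, which held 9 of the 10 genes. Capitals mark CCGGAAG, the core recognized by ETS factors, or its complement CTTCCGG. The windows are chr7:107743892-107744141 for CBLL1, chr13:46052747-46052996 for ZC3H13, chr6:159726867-159727116 for WTAP (the first of its listed starts) and chr14:21511341-21511590 for METTL3.
CBLL1: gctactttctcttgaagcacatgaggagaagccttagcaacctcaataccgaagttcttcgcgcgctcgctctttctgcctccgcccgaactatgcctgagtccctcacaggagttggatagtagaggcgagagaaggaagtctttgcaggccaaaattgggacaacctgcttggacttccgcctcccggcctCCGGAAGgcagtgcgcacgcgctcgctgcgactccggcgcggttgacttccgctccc
ZC3H13: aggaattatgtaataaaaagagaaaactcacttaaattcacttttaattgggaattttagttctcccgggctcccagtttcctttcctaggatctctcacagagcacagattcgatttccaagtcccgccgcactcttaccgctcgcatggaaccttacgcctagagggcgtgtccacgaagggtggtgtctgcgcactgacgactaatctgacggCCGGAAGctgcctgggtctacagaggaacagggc
WTAP: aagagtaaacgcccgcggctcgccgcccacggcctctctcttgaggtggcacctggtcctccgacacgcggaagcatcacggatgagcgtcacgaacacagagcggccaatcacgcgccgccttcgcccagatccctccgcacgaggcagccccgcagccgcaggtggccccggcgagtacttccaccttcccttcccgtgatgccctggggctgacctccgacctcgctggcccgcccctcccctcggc
METTL3: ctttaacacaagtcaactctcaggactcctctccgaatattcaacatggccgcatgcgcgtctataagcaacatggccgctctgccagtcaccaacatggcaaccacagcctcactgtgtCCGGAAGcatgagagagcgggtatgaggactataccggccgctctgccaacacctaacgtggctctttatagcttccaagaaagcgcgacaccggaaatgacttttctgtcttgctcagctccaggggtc

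The core was present once in the windows of CBLL1, ZC3H13 and METTL3 and absent from that of WTAP. It was thus found in 2 of the 3 called genes and in METTL3, which was lower. Searched on both strands, it was found in 4 of the 9 genes (METTL14 was the other) and in 8.52% of all 35116 windows. For every motif, a gene counted when any of its listed windows held it, whereas the share is of single windows. The gene counts and window shares are therefore not like measures. GCATGCGC, the core of the NRF1 site, was found in METTL3 and ALKBH5 and in 2.63% of windows. CCAAT was present in 5 of the 9 genes (METTL14, WTAP, ZC3H13, CBLL1 and RBM15) against 32.0% of windows, and the GC box GGGCGG in 5 (WTAP, CBLL1, RBM15, RBM15B and ALKBH5) against 42.6%. TGANTCA, the AP-1 site, was found in 0 of the 9 genes and in 6.57% of windows, and none of the motifs given so far contains another. TGACNNNGC, the antioxidant response core, was found in RBM15B alone and in 10.9% of windows. The ATF4 response core, TGATGNAAT, was found in 0 of the 9 genes and in 0.888% of windows. GC content was 58.8% for CBLL1, 50.0% for ZC3H13, 70.0% for WTAP and 53.2% for METTL3. For CBLL1, ZC3H13 and METTL3 the outermost GENCODE start lies inside the window shown, and for WTAP it lies upstream of it.

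Both demethylases were lower in T24R2, by less than the fold change minimum. FTO (ENSG00000140718.21, chr16:53701692-54158512, plus strand), which also acts on other methylated bases and on cap-adjacent adenosines, measured 54.0, 53.0, 55.8, 48.7 and 56.7 CPM in T24 and 40.1, 38.2, 43.2, 38.3 and 33.6 CPM in T24R2. All T24R2 libraries lay under all T24 libraries. Its mean was 53.6 ± 3.10 CPM in T24 and 38.7 ± 3.47 CPM in T24R2, a log2FC of -0.47 (95% interval -0.61 to -0.33, edgeR adjusted p = 1.0e-07). FTO crossed the fold change minimum, at -0.51, when either T24 replicate 4 or T24R2 replicate 3 was left out. ALKBH5 (ENSG00000091542.9, chr17:18183078-18209954, plus strand), a nuclear demethylase specific for m6A, measured 138, 133, 129, 132 and 135 CPM in T24 and 109.6, 101, 89.9, 102 and 102 CPM in T24R2. The ALKBH5 ranges were fully separated, with replicate 3 the lowest of each line. Its mean was 133 ± 3.33 CPM in T24 and 101 ± 7.07 CPM in T24R2, a log2FC of -0.40 (95% interval -0.50 to -0.30, edgeR adjusted p = 4.3e-09).

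**Figure D2:**
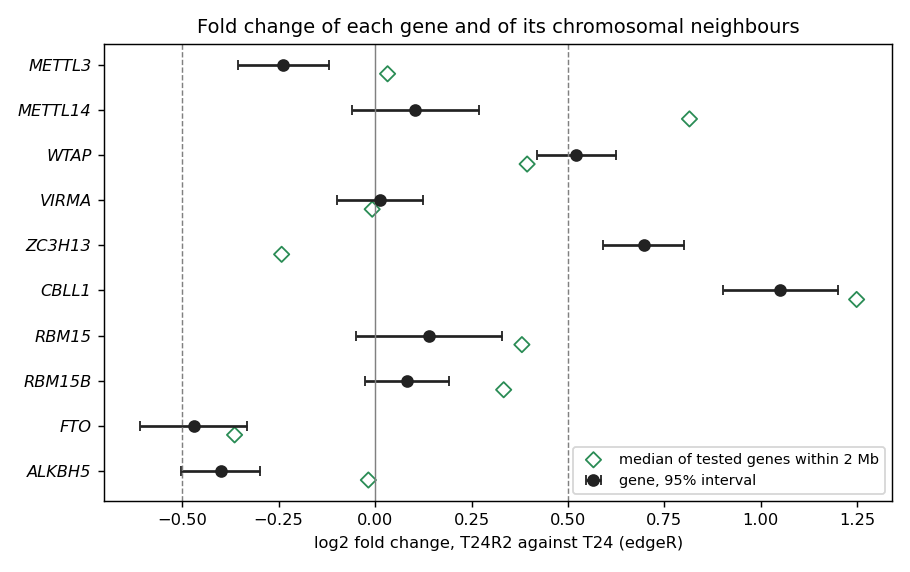
The log2FC of T24R2 against T24 for each gene (black points with 95% intervals, edgeR) and the median log2FC of the tested genes within 2 Mb of it (green diamonds), with dashed lines at the fold change minimum of 0.5 in either direction. CBLL1, ZC3H13 and WTAP lie past the line on the right, and the diamonds of ZC3H13 and METTL14 lie far from their genes.

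To relate the subunits to each other, 7 ratios were formed within each library from counts per kilobase of merged exons, which makes them free of scaling between libraries. For METTL14 to METTL3 the ratio was 0.333, 0.305, 0.363, 0.297 and 0.331 in the T24 libraries and 0.366, 0.369, 0.439, 0.435 and 0.453 in the T24R2 libraries. The lines did not overlap, although T24 replicate 3 and T24R2 replicate 1 nearly met. The log2 ratio differed by 0.34 (exact two-sided permutation test, p = 0.00794, adjusted over the 7 ratios 0.0139). WTAP to METTL3 moved most, from 1.13, 0.970, 1.33, 1.25 and 1.15 in T24 to 1.96, 1.95, 2.01, 1.98 and 1.89 in T24R2. By merged exons the pair was near parity in T24, and the ratio was 1.96 in T24R2 on the geometric mean, but these ratios depend on the length assigned to each gene. With the longest transcripts, WTAP and METTL3 measured 24.3 and 35.4 CPM per kilobase in T24 and 34.9 and 30.1 in T24R2, and with the coding sequences 74.8 and 40.3 in T24 and 107 and 34.2 in T24R2. The length does not touch the difference of a ratio between the lines. The WTAP to METTL3 difference was 0.76 on the log2 scale (exact permutation p = 0.00794, adjusted 0.0139).

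Ratios to WTAP separated the adaptors from each other. CBLL1 to WTAP was 0.328, 0.317, 0.308, 0.269 and 0.301 in T24 and 0.429, 0.410, 0.438, 0.475 and 0.441 in T24R2, without overlap, so CBLL1 rose beyond WTAP by 0.53 on the log2 scale (exact permutation p = 0.00794, adjusted 0.0139). VIRMA to WTAP was 0.542, 0.583, 0.582, 0.539 and 0.521 in T24 and 0.344, 0.373, 0.395, 0.407 and 0.424 in T24R2, a difference of -0.51 (exact permutation p = 0.00794, adjusted 0.0139). The lines did not overlap for this pair either. ZC3H13 and WTAP stayed nearest to a common ratio among the pairs with WTAP, at 0.541 in T24 and 0.610 in T24R2. Their ranges touched, and the difference of 0.17 passed the test (exact permutation p = 0.0159, adjusted 0.0222), but it turned to -0.10 when an even share of counts from opposite-strand genes was taken off (exact permutation, adjusted p = 0.111, with a range of 0.00926 to 0.111 over 12 alternatives). By the same step the difference of CBLL1 to WTAP went from 0.53 to 0.24, that of VIRMA to WTAP from -0.51 to -0.79 and that of WTAP to METTL3 from 0.76 to 1.06, and all 3 kept their direction and passed the test. That alternative was chosen once the data had been seen.

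The ratios of the paralogues and of the demethylases differed by less than the spread of the libraries. RBM15 to RBM15B was 0.304 in T24 and 0.315 in T24R2, a log2 difference of 0.05 (exact permutation p = 0.571, adjusted 0.571). That difference became 0.65 (exact permutation, adjusted p = 0.00926, range 0.00926 to 0.984 over 12 alternatives) when all counts of the genes lying opposite RBM15B and RBM15 were taken off. FTO to ALKBH5 was 0.0677 in T24 and 0.0644 in T24R2, a log2 difference of -0.07 (exact permutation p = 0.5, adjusted 0.571), with T24R2 replicate 3 highest at 0.0809 and T24R2 replicate 5 lowest at 0.0553.

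**Figure D3:**
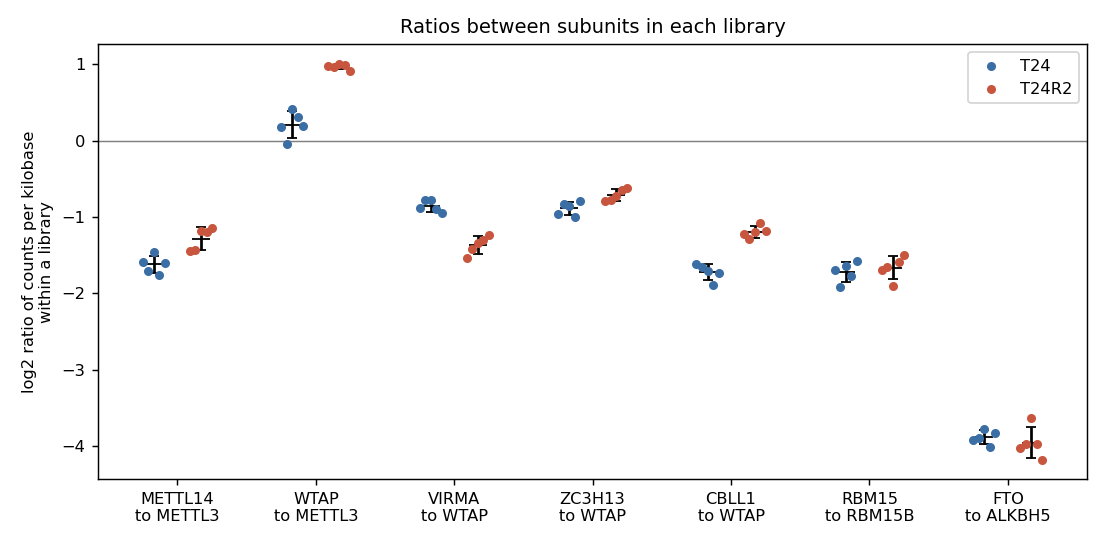
The log2 ratio of counts per kilobase between members of 7 pairs in each library, with T24 in blue and T24R2 in red (n = 5 each) and the mean with its SD in black. METTL14 to METTL3, WTAP to METTL3, VIRMA to WTAP and CBLL1 to WTAP are separated between the lines, whereas RBM15 to RBM15B and FTO to ALKBH5 overlap.

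Levels were compared between genes as CPM per kilobase of merged exons. In T24 the order was ALKBH5 (37.0), RBM15B (15.6), WTAP (13.9), METTL3 (12.0), VIRMA (7.66), ZC3H13 (7.49), RBM15 (4.74), CBLL1 (4.21), METTL14 (3.89) and FTO (2.51). The ranges of RBM15B and WTAP, WTAP and METTL3, VIRMA and ZC3H13, RBM15 and CBLL1, and CBLL1 and METTL14 overlapped, so these neighbours were not ordered beyond their spread. In T24R2 the order of CPM per kilobase was ALKBH5 (28.1), WTAP (19.9), RBM15B (16.5), ZC3H13 (12.1), METTL3 (10.2), CBLL1 (8.72), VIRMA (7.72), RBM15 (5.23), METTL14 (4.18) and FTO (1.81). Of the T24R2 neighbours, the ranges of RBM15 and METTL14 were the only ones to overlap. By this length WTAP stood above RBM15B, ZC3H13 above METTL3 and CBLL1 above VIRMA in T24R2 and not in T24. These changes of order depend on the length used. With the longest transcript none of the 3 was seen, since WTAP was above RBM15B in both lines and ZC3H13 and CBLL1 stayed under METTL3 and VIRMA. With the coding sequence, the means of CBLL1 and VIRMA were the only pair of the 3 to change places. The ranges of CBLL1 and VIRMA overlapped in T24 with the coding sequence and in T24R2 with the longest transcript, so their order there was within the spread.

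Summed over the 8 writer subunits, the level was 69.4 ± 0.685 CPM per kilobase in T24 and 84.5 ± 1.50 in T24R2 (SD, n = 5). METTL3 made up 17.3% ± 1.30 of the T24 sum and 12.0% ± 0.299 of the T24R2 sum. The CBLL1 share went from 6.06% ± 0.277 to 10.3% ± 0.488, that of ZC3H13 from 10.8% ± 0.615 to 14.4% ± 0.446 and that of WTAP from 20.0% ± 1.32 to 23.5% ± 0.798. METTL14 held 5.60% ± 0.246 and 4.95% ± 0.408. These shares depend on the length assigned to each gene. With the longest transcript, METTL3 (1980 bases instead of 5861) made up 31.5% of the writer sum in T24 and 22.9% in T24R2. With the coding sequence, FTO (1677 bases instead of 21379) moved from the last to the fifth place of the 10 in T24, and WTAP stood above ALKBH5 in T24R2. Ratios between the lines for one gene are not touched by its length.

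**Figure D4:**
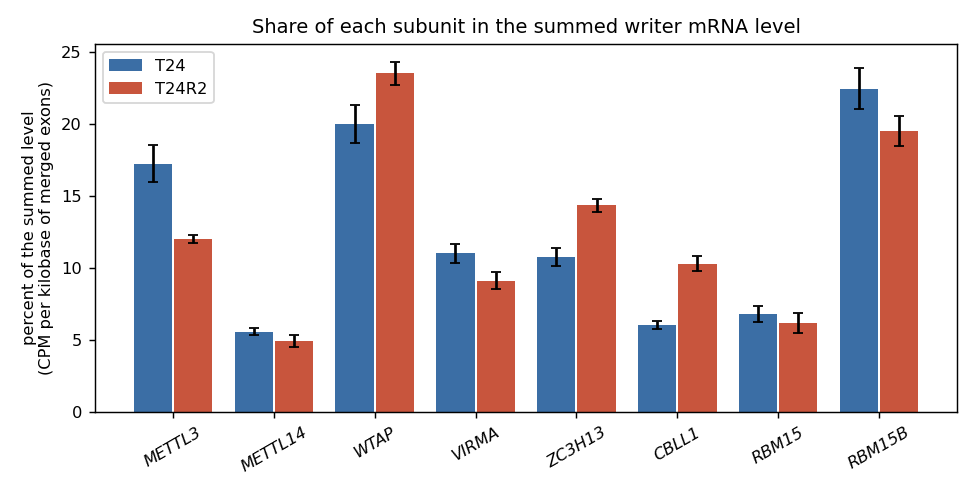
Share of each of the 8 writer subunits in their summed mRNA level (CPM per kilobase of merged exons), as the mean over 5 libraries with its SD, T24 in blue and T24R2 in red. METTL3 goes from 17.3% to 12.0%, while CBLL1, ZC3H13 and WTAP take larger shares in T24R2.

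Several of these genes have exons that lie over those of an opposite-strand gene. Fragments were counted by strand. As a check, 51 genes were taken that lie more than 90% inside exons of an opposite-strand gene, whose even share there was over 200 counts. They had a median of 1.47 times the count per base of that gene (quartiles 0.954 and 2.74, range 0.0193 to 7.19). The pairs were mixed, and reads of overlapping genes could not be relied on to be told apart by strand here. WTAP shares 437 bases (6.81% of its exons) with ENSG00000112096.19, which averaged 8275 counts in T24 and 4536 in T24R2 against 825 and 1384 for WTAP. Taking off the even share of those counts moved the log2 ratio of mean WTAP levels from 0.52 to 0.80, and the direction held. METTL3 shares 388 bases (6.62%) with TOX4, and its log2 ratio moved from -0.24 to -0.26 by the same step. RBM15B shares 1325 bases (20.0%) with DCAF1, which averaged 410 counts in T24 and 728 in T24R2 (log2FC 0.61). The log2 ratio of RBM15B was 0.08 as counted, 0.03 with the even share taken off and -0.49 with all DCAF1 counts taken off, so its direction depends on that overlap. CBLL1 shares 348 bases (6.66%) with CBLL1-AS1, an antisense transcript that averaged 10.6 counts in T24 and 46.8 in T24R2 (log2FC 1.91). The log2 ratio of CBLL1 was 0.98 instead of 1.05 when every count of that antisense transcript was subtracted. For ZC3H13 (263 bases with CPB2-AS1) the value was 0.75 instead of 0.70, and for ALKBH5 (357 bases with ENSG00000266677.1) it was -0.44 instead of -0.40.

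Of the annotated copies, WTAPP1, a pseudogene of WTAP, averaged 45.4 counts in T24 and 1.6 in T24R2, against 825 and 1384 for WTAP. CBLL2 and CBLL1P1 had 0 counts in all libraries, and FTOP1 averaged 0.9.

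The chromosomal neighbours of each gene were read in the same fit, in which 24.9% of all tested genes were called higher and 26.5% lower. CBLL1 lay among genes that were mostly higher in T24R2, since 15 of 19 tested genes within 2 Mb were called higher and 2 lower, with a median log2FC of 1.25. ZC3H13 had 18 tested neighbours within 2 Mb, 0 called higher and 4 lower, with a median of -0.24, and 56 within 5 Mb, 8 called higher and 12 lower, with a median of -0.03. WTAP had 23 tested neighbours, 10 called higher and 5 lower, with a median of 0.39. METTL14, which was not called, had 8 of 14 neighbours called higher, 0 lower and a median of 0.81. For METTL3, VIRMA and ALKBH5 the neighbour medians were 0.03, -0.01 and -0.02 over 58, 26 and 61 genes, whereas RBM15 and RBM15B had medians of 0.38 and 0.33 over 54 and 82 genes. FTO had 9 tested neighbours with a median of -0.36, which was -0.00 over the 70 genes within 5 Mb, while that of CBLL1 was 0.78 within 5 Mb. The part of these neighbourhoods in the levels of the 10 genes was not tested.

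Genes around the complex were read from 4 lists. The counts of each list stand beside the shares over all tested genes, 24.9% called higher and 26.5% lower. Among the 6 other RNA adenosine N6-methyltransferases and partners, 0 were called higher and 1 lower, with a median log2FC of -0.20. The called gene was PCIF1, which methylates the adenosine next to the cap. It fell from 66.7 ± 3.75 to 45.8 ± 2.06 CPM, a log2FC of -0.54 (edgeR adjusted p = 2.2e-10). METTL16 and ZCCHC4 lay just under the fold change minimum and are named after their values were seen. METTL16, which methylates U6 snRNA and hairpins of the MAT2A transcript, had a log2FC of 0.49 (34.5 ± 2.98 and 48.4 ± 2.03 CPM, edgeR adjusted p = 6.6e-08). ZCCHC4, a ribosomal RNA methyltransferase, had a log2FC of -0.50 (12.6 ± 2.69 and 8.92 ± 0.634 CPM, edgeR adjusted p = 0.00116).

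The list for supply of S-adenosylmethionine, the methyl donor, and removal of its product S-adenosylhomocysteine held 6 genes, among them relatives of the hydrolase AHCY. Of the 6 genes, 2 were called higher and 1 lower, with a median log2FC of 0.27. With the adjusted p alone, 3 were higher and 2 lower. MAT2A, the catalytic subunit of methionine adenosyltransferase, rose from 243 ± 6.74 to 409 ± 5.83 CPM, a log2FC of 0.75 (edgeR adjusted p = 2.0e-19), and every T24R2 library was above every T24 library, with 12.5% of its exon bases over an opposite-strand gene. AHCYL2, a relative of the hydrolase AHCY, rose by 0.86 on the log2 scale (12.4 ± 1.37 to 22.5 ± 3.20 CPM), and a part of it in this removal was not tested. AHCY itself, named after its value was seen, was lower by less than the fold change minimum. It went from 340 ± 13.5 to 280 ± 6.75 CPM (log2FC -0.28, edgeR adjusted p = 1.6e-07). ADK, the kinase that removes adenosine, fell from 83.6 ± 4.78 to 39.7 ± 2.7 CPM, a log2FC of -1.07 (edgeR adjusted p = 8.9e-19).

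Of the 7 other AlkB homologues, 0 were called higher and 1 lower, with a median log2FC of -0.06. That gene was ALKBH2, a DNA repair enzyme, which fell from 16.1 ± 0.904 to 8.37 ± 0.614 CPM (log2FC -0.94, edgeR adjusted p = 2.1e-09). The exon junction complex, whose binding near splice sites keeps m6A out of internal exons, and partners at the 3′ end made a list of 7 with 2 called higher, 1 lower and a median of 0.00. RBM8A rose from 45.4 ± 4.25 to 103 ± 1.57 CPM (log2FC 1.18, edgeR adjusted p = 8.0e-21), and 23.3% of its exon bases lie over an opposite-strand gene. MAGOHB, a partner of RBM8A, rose by 0.58 (12.5 ± 2.06 to 18.7 ± 1.55 CPM) and the helicase EIF4A3 fell by 0.56 on the log2 scale. MAGOH of the same list, named after its value was seen, was not called. It measured 36.3 ± 1.77 CPM in T24 and 33.0 ± 4.42 CPM in T24R2 (log2FC -0.14, edgeR adjusted p = 0.120). The core of the exon junction complex thus held called genes of both directions.

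**Figure D5:**
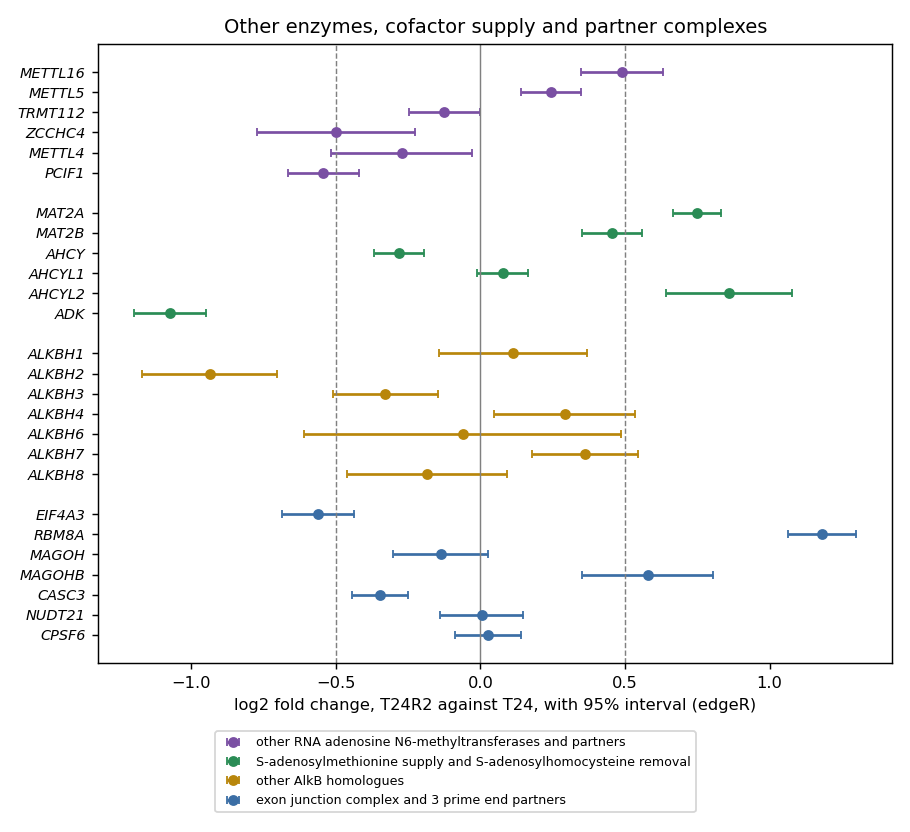
The log2FC of T24R2 against T24 with 95% intervals (edgeR) for the 26 genes of the 4 lists, coloured by list, with dashed lines at the fold change minimum of 0.5. RBM8A, AHCYL2, MAT2A and MAGOHB lie past the line on the right, and ADK, ALKBH2, EIF4A3 and PCIF1 lie past it on the left.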

How the data were processed

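RNA-seq of 5 T24 and 5 T24R2 libraries was analysed. The authors used STAR 2.7.0 for alignment (hg38), SAMtools 1.10 to retain unique, deduplicated alignments, and featureCounts 2.0.1 (strand option 1) to count fragments on GENCODE 39 genes. The deposited values are raw counts per gene, neither normalized nor pooled. Groups came from the sample labels.

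Counts were tested in R 4.3.3 with edgeR 4.0.16 (filterByExpr, TMM, glmQLFit, glmQLFTest) on all 16181 genes that passed the filter, with Benjamini-Hochberg adjustment over them. A call needed an adjusted p below 0.05 together with a log2 fold change beyond 0.5 in size. The study used the same cut-offs, but on DESeq2 fold changes after shrinkage, whereas edgeR values without that step were used here. CPM used TMM-scaled library sizes, except in the sums of marker lists, which used library totals. Means of 5 libraries carry their SD. Exact two-sided permutation tests compared single values (252 assignments). Ratios used counts per kilobase and 7 tests. The totals of 9257843 to 10840954 limit the precision, and all intervals cover these libraries only. Each of 20 replicate pairs differed beyond sampling noise (chi-square divided by its degrees of freedom, 1.99 to 6.51). Exon overlaps were computed with bedtools 2.31.1 from the exon coordinates in the tables. An even share is the count of the opposite gene times its shared bases over its length. Symbols matched 61415 of 61533 gene IDs, and 0 rows lacked a gene.

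The text names the 10 members, the called genes of 4 pathway lists, opposite-strand genes and copies averaging at least 10 counts, and others as stated. The members and lists were chosen with earlier results of these data known. The alternatives were other scalings, DESeq2 1.42.0 without and with normal shrinkage, limma-voom (limma 3.58.1), count filters, removal of mitochondrial or of overlapped genes, a replicate block, other thresholds, lengths and windows, and leaving out each library. The edgeR step was run on simulated counts in which only a small share of the genes changed. With 51.4% of genes called here, that simulation cannot show how the scaling behaves in these data. Other steps used Python 3.11.15, numpy 2.4.6, pandas 2.3.3, SciPy 1.17.1 and matplotlib 3.10.9.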

Additional observations from a re-analysis of the deposited data

How the results depend on the processing

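The calls of CBLL1 and ZC3H13 held under every alternative fit at the same thresholds. WTAP fell to 0.48 without T24 replicate 2. The number of genes called higher went from 3 to 1 (CBLL1) at an absolute log2FC over 1 and ran from 2 to 3 over the fits without 1 library. The number called lower went from 0 to 3 (METTL3, FTO and ALKBH5) with the adjusted p only and ran from 0 to 1 over the fits without 1 library, the 1 being FTO. Without scaling and with upper-quartile normalization, 9 genes passed the adjusted p instead of 6. In the unscaled fit METTL14, VIRMA, RBM15 and RBM15B passed at 0.27, 0.18, 0.30 and 0.25, and METTL3 did not. VIRMA, close to 0, turned to -0.0026 without T24 replicate 1, -0.0087 without T24 replicate 2, -0.0075 without T24 replicate 5 and -0.0025 without T24R2 replicate 5, and ran from -0.0087 to 0.050. Over all log2FC alternatives of the 10 genes, 202 kept their direction and their status as called or not, 4 reversed, 2 gained and 1 lost the call. Some of the 202 crossed the adjusted p alone, namely METTL3, METTL14, VIRMA, RBM15 and RBM15B in the unscaled fit, METTL14, RBM15 and RBM15B with upper-quartile normalization, and RBM15 without T24R2 replicate 3 (edgeR adjusted p = 0.038). RBM15B was not tested in the fit without overlapped genes. Of the ratio alternatives 82 kept both. RBM15 to RBM15B went to 0.65 (exact permutation, adjusted p = 0.00926, range 0.00926 to 0.984) with all counts of the less abundant opposite-strand genes taken off, and ZC3H13 to WTAP turned to -0.10 with the even share taken off. The cause of the other changes was not tested. Replicate numbers did not pair the libraries (correlations of deviations -0.02 to 0.02, with 1 of 5 numbers its own best match), and with the replicate block 3 genes were called higher and 0 lower, as without it. The ratios were not tested in pairs, for which the exact test of 5 pairs gives a p of at least 0.0625. Depth limits RBM15, METTL14 and CBLL1 most, at means of 204 to 309 counts in at least 1 line.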
